A study of Homo sapiens with 12 samples.

Results

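The HOX genes were followed in vemurafenib-resistant and sensitive melanoma cells of the A375 and SKMel28 lines. They were taken as every gene symbol made of HOXA, HOXB, HOXC or HOXD and a number, and 39 of the 26499 gene symbols counted met this rule, which used no measured value. The HOXA cluster gave 11 members (chr7:27092993-27200106), HOXB 10 (chr17:48528526-48729178), HOXC 9 (chr12:53938765-54056030) and HOXD 9 (chr2:176092891-176190907), with positions from GENCODE release 29 on GRCh38.

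HOX genes encode homeodomain transcription factors that give cells their address along the body axes. Within a cluster the genes stand in the order in which they are used from head to tail, low numbers toward the head and high numbers toward the trunk end and the tips of the limbs, and genes of the same number in different clusters are paralogs. Adult skin fibroblasts are known to keep the HOX pattern of their body site. Polycomb complexes keep a closed HOX gene silent through cell division, MLL complexes keep an open one active, and PBX and MEIS proteins bind DNA together with HOX proteins.

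A375 and SKMel28 are established human melanoma lines, and vemurafenib is a drug against the mutant BRAF kinase found in many melanomas. Resistant A375 cells, sensitive A375 cells, resistant SKMel28 cells and sensitive SKMel28 cells were represented by 3 poly(A)-selected RNA-seq libraries each. All cells grew in DMEM with 10% fetal bovine serum. Vemurafenib at 1 µmol/L stayed on the resistant ones, while the labels name no drug for sensitive cells, so resistance and the presence of the drug cannot be told apart. The study asked about the IGF1 pathway in resistance to BRAF and MEK inhibitors; for the HOX genes the design gives a comparison of the lines and, within each line, of resistant with sensitive cells. The labels say neither whether a resistant line is 1 clone nor whether the 3 libraries of a group are separate cultures; the p-values reflect the spread among these libraries, which may be technical.

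Reads assigned to genes numbered 28496518 to 37721363 per library. Levels are given as CPM (counts scaled by TMM to a common depth), and as CPM per kb of exon where genes are set beside each other. Expression of 34 members was high enough to test. The other 5, HOXA7, HOXA9, HOXB1, HOXD11 and HOXD12, had 15, 17, 1, 31 and 45 reads over all 12 libraries. Unless another test is named, a gene was called at an adjusted p below 0.05 (edgeR quasi-likelihood test, Benjamini-Hochberg over 15506 genes, two-sided). As a check of the labelled cell type, all 8 melanocyte markers reached 1 CPM in both SKMel28 groups, but MITF alone did in resistant A375 and MITF, SOX10 and S100B in sensitive A375. TYR, the defining enzyme gene of pigment cells, had no read in either A375 group.

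Both lines expressed long runs of HOX genes from all 4 clusters. At 1 CPM or more stood 27 members in resistant A375 and 27 in sensitive A375, of which 26 were shared, and 25 in resistant SKMel28 and 26 in sensitive SKMel28, of which 25 were shared. HOXB and HOXC were filled nearly end to end in A375, with 9 of 10 HOXB and 8 of 9 HOXC members at 1 CPM in resistant cells and 9 of 10 and 9 of 9 in sensitive cells. In SKMel28 the same threshold was reached by 8 of 10 HOXB and 7 of 9 HOXC members in resistant cells, and by 9 of 10 and 7 of 9 in sensitive cells. HOXB1, the most anterior HOXB gene, had 1 read in all. Group means of HOXA2 and HOXA6 stayed below 1 CPM everywhere, from 0.331 to 0.959 and from 0.533 to 0.995 CPM. HOXB5 ran from 2.55 to 6.62 CPM and HOXC9 from 5.18 to 11.6 CPM, both higher in A375 than in SKMel28 of the same state.

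**Figure D1:**
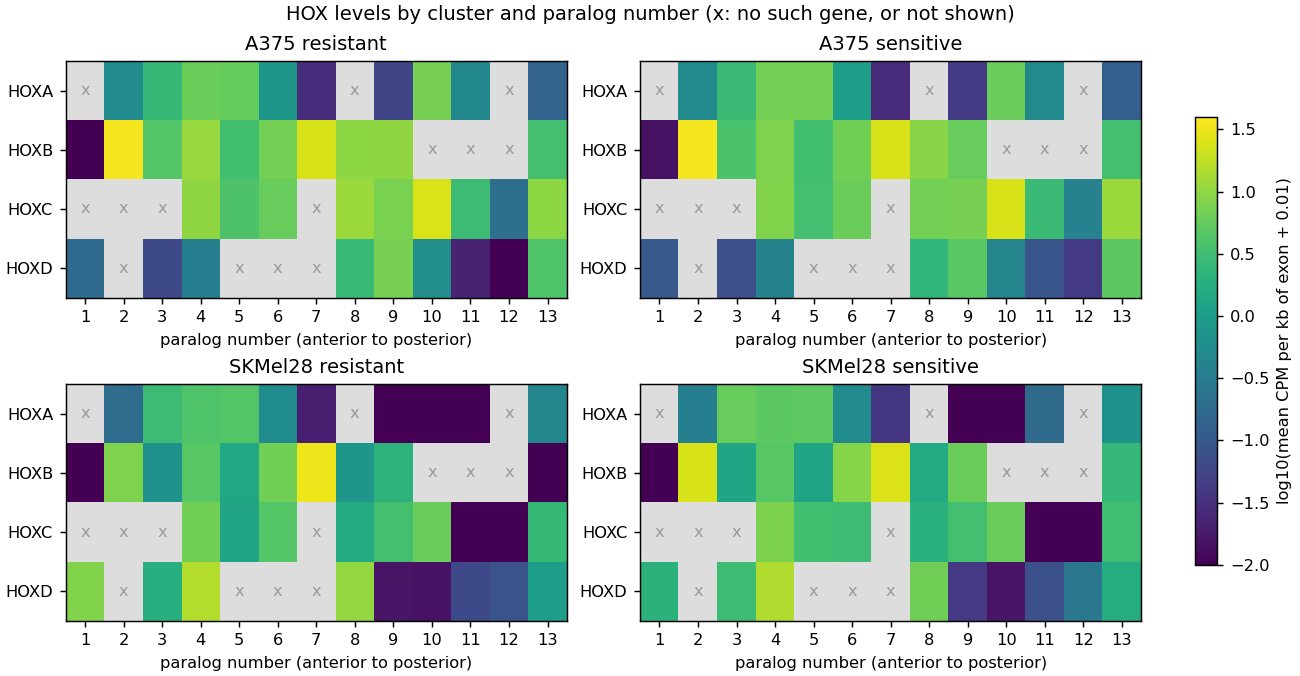
Mean level of the HOX genes in each group, as log10 of CPM per kb of exon plus 0.01, with clusters as rows and paralog numbers as columns (n = 3 libraries, x where a cluster has no gene of that number or it is not shown). The A375 panels hold signal at HOXA10, HOXC11, HOXC12, HOXD9 and HOXD10 where SKMel28 is dark, and the SKMel28 panels are brighter than the A375 panels at HOXD1, HOXD3 and HOXD4.

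The clusters carried different shares of the HOX reads in the lines, by sums of CPM with no correction for gene length. Summed over its members, HOXC stood at 164, 165 and 165 CPM in the resistant A375 libraries and 157, 148 and 156 CPM in the sensitive ones. SKMel28 libraries had 55.8, 58.4 and 60.6 CPM when resistant and 60.3, 59.9 and 64.3 CPM when sensitive, all below every A375 library. HOXD ran the other way. Its sum was 33.1, 33.3 and 29.8 CPM in resistant A375 and 29.1, 29.6 and 26.5 CPM in sensitive A375, against 70.8, 70.5 and 77.7 CPM in resistant SKMel28 and 52.01, 53.8 and 57.6 CPM in sensitive SKMel28. HOXD thus made up 6.56% of the summed HOX level in resistant A375, 6.31% in sensitive A375, 27.5% in resistant SKMel28 and 17.3% in sensitive SKMel28.

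HOXB was the largest cluster by sum in every group. It reached 244, 224 and 227 CPM in resistant A375 and 209, 204 and 205 CPM in sensitive A375. In resistant SKMel28 it reached 94.7, 101 and 105 CPM, below each of the sensitive SKMel28 libraries at 143, 152 and 139.8 CPM. HOXA sums were 59.9, 61.3 and 60.3 CPM in resistant A375 and 62.5, 62.9 and 60.9 CPM in sensitive A375, which overlap. They were 32.6, 34.1 and 35.6 CPM in resistant SKMel28 and 54.7, 55.3 and 54.7 CPM in sensitive SKMel28, which do not. In these bulk libraries a smaller share of expressing cells and less RNA per cell cannot be told apart.

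**Figure D2:**
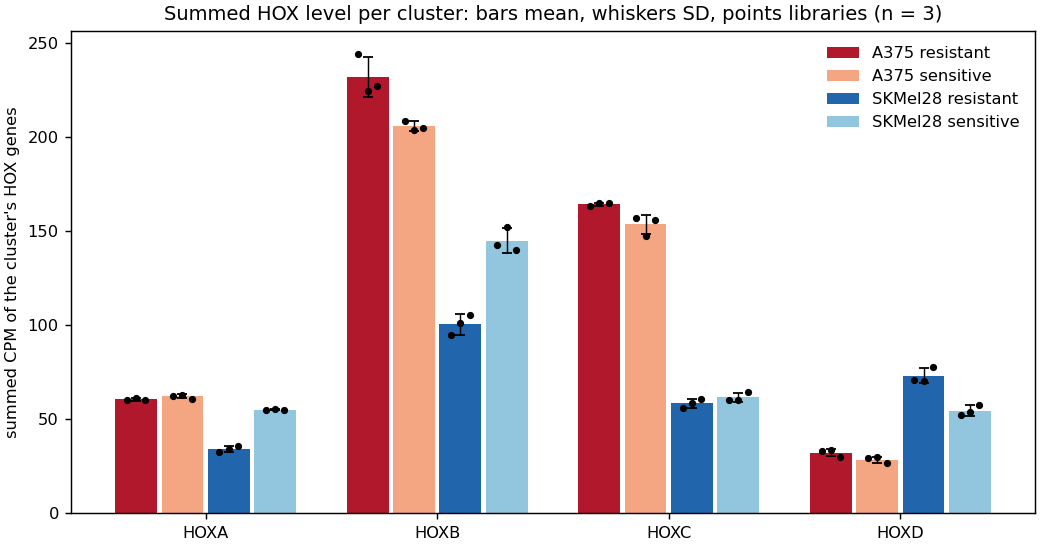
Summed CPM of the HOX genes of each cluster, with bars for group means, whiskers for the SD and points for the 3 libraries of each group. SKMel28 bars are below A375 bars in HOXB and HOXC and above them in HOXD; resistant SKMel28 is below sensitive SKMel28 in HOXA and HOXB and above it in HOXD.

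Per kb of exon, the order of levels differed between the lines in HOXD. In A375 the cluster was led by posterior genes. HOXD9 stood at 7.32 ± 0.437 CPM per kb and HOXD13 at 3.99 ± 0.4095 in resistant A375 (SD, n = 3), while in sensitive A375 HOXD9 at 4.83 ± 0.397 and HOXD13 at 4.99 ± 0.671 did not differ beyond their spread. SKMel28 was led by HOXD4, with 15.6 ± 0.462 CPM per kb in resistant and 14.6 ± 1.33 in sensitive cells, followed by HOXD8 with 10.3 ± 0.592 in resistant and 6.51 ± 0.745 in sensitive cells. The next place belonged to HOXD1 in resistant SKMel28, at 8.19 ± 0.751 CPM per kb, and to HOXD3 in sensitive SKMel28, at 3.03 ± 0.184. Since HOXD3 and HOXD4 share exons with another gene, their order is uncertain.

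In HOXB the order was led by HOXB2, a gene of the hindbrain in the embryo, and HOXB7. HOXB2 led in A375, at 35.2 ± 1.33 CPM per kb in resistant and 35.8 ± 1.72 in sensitive cells, ahead of HOXB7 at 23.9 ± 1.72 in resistant and 23.99 ± 0.946 in sensitive cells. In SKMel28 HOXB7 was first, at 31.9 ± 2.85 CPM per kb in resistant and 25.4 ± 2.11 in sensitive cells. There HOXB2 was a distant second in resistant cells, at 7.995 ± 0.454, and within the spread of HOXB7 in sensitive cells, at 23.8 ± 0.411. The next places went to HOXB4 in resistant A375 (10.9 ± 0.603 CPM per kb), to HOXB8 in sensitive A375 (9.24 ± 0.238) and to HOXB6 in both SKMel28 groups (6.71 ± 0.565 in resistant and 8.78 ± 0.606 in sensitive cells).

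HOXC10, a gene of the lumbar and hindlimb levels in the embryo, led HOXC in A375 with 25.3 ± 0.217 CPM per kb in resistant and 23.7 ± 1.64 in sensitive cells. In SKMel28 HOXC4 was first, with 6.86 ± 0.694 CPM per kb in resistant and 7.86 ± 0.549 in sensitive cells. HOXC10 followed there with 6.15 ± 0.669 in resistant and 5.94 ± 0.248 in sensitive cells; in resistant cells the 2 levels did not differ beyond their spread. HOXA levels were flatter. HOXA10 led in resistant A375 at 7.17 ± 0.234 CPM per kb, and HOXA4 at 6.96 ± 0.365 with HOXA5 at 6.94 ± 0.469 in sensitive A375. In SKMel28 HOXA5 stood at 4.29 ± 0.413 and HOXA4 at 4.102 ± 0.50 in resistant cells, and HOXA3 at 5.79 ± 0.457 in sensitive cells.

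The lines differed in which positions of the clusters they expressed. In resistant cells, 31 of 34 tested members were called between A375 and SKMel28, 24 higher and 7 lower in A375 beside 85.3% of all tested genes called. In sensitive cells 29 of 34 were called, 21 higher and 8 lower in A375, beside 82.9% of all tested genes, so the numbers called are close to the background. The 2 comparisons share no library with each other, but each shares libraries with the comparisons within lines. By position, of the 13 tested posterior members (numbers 9 to 13), 12 were higher and 1 lower in resistant A375 than in resistant SKMel28. In sensitive A375 11 were higher and 1 lower than in sensitive SKMel28. HOXA10, HOXC11 and HOXC12 had no read in SKMel28, so once tested they could only be higher in A375. The same held among resistant cells for HOXA11 and HOXB13, which had no read in resistant SKMel28. HOXD9 and HOXD10 had 1 read each in resistant SKMel28, and 5 and 1 in sensitive SKMel28, so their direction was nearly fixed. Of the untested posterior members, HOXA9 was read in A375 alone. HOXD12 had 0 reads in resistant and 4 in sensitive A375, against 10 in resistant and 31 in sensitive SKMel28. HOXD11 had more reads in SKMel28 among resistant cells and more in A375 among sensitive cells. Of the 7 tested anterior members (numbers 1 to 3), 3 were higher and 3 lower in resistant A375, and 2 were higher and 4 lower in sensitive A375. Among all tested genes 42.6% stood higher and 42.7% lower in resistant A375 by call, and 42.4% higher and 40.5% lower in sensitive A375. Past 2-fold were 25 members in resistant and 22 in sensitive cells, beside 46.1% and 40.2% of all tested genes.

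HOXA10, a posterior gene needed for uterine and hindlimb-level patterning, marked A375. It had 22.3, 23.5 and 22.1 CPM in the resistant and 19.9, 18.96 and 17.5 CPM in the sensitive A375 libraries, and no read in any of the 6 SKMel28 libraries. It was at least 744-fold higher in resistant A375 than in resistant SKMel28, with 3 reads over a group as the floor. In sensitive A375 it was at least 570.3-fold higher than in sensitive SKMel28. HOXC11 was likewise read in A375 alone, with 9.25, 11.3 and 8.53 CPM in resistant and 10.2, 8.54 and 9.31 CPM in sensitive cells, at least 319-fold and at least 283-fold above SKMel28 of the same state. HOXC12, its neighbour, was at 0.811, 0.684 and 0.545 CPM in resistant A375 and 1.06, 1.22 and 1.596 CPM in sensitive A375, with no read in SKMel28. Floors cover counting error only, because without molecular identifiers several reads may stem from 1 molecule.

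Other posterior genes were nearly absent from SKMel28 among these 4 groups. HOXD9 had 13.4, 14.6 and 13.01 CPM in resistant and 9.78, 8.29 and 9.04 CPM in sensitive A375, against 1 read in all of resistant SKMel28 and 5 in all of sensitive SKMel28. HOXD10 stood at 1.18 CPM in resistant and 0.853 CPM in sensitive A375, and had 1 read in each SKMel28 group. Among the tested posterior members, HOXA13 was the one that ran the other way. It had 0.866, 0.357 and 0.757 CPM in resistant A375 against 2.36, 1.95 and 2.39 CPM in resistant SKMel28 (log2 difference -1.75 ± 0.30 SE). In sensitive cells it had 0.504, 0.457 and 0.698 CPM in A375 against 3.701, 3.796 and 2.54 CPM in SKMel28 (-2.60 ± 0.30).

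Paralogs of the same number did not share this split. Of the paralogs numbered 10, HOXA10 and HOXD10 were read almost only in A375, while HOXC10 was abundant in both lines. HOXC10 had 49.4, 48.7 and 48.8 CPM in resistant A375 against 11.1, 13.4 and 11.2 CPM in resistant SKMel28, and 46.9, 42.4 and 48.5 CPM in sensitive A375 against 10.97, 11.9 and 11.7 CPM in sensitive SKMel28 (log2 differences 2.04 ± 0.07 and 2.00 ± 0.07 SE). Their homeoboxes, the 180 coding bases of the DNA-binding domain, are alike but not the same, which bears on whether reads can be assigned to one of them. HOXA10 and HOXC10 are 81.7% identical over these bases, HOXA10 and HOXD10 77.8%, and HOXC10 and HOXD10 82.8%. The 3 sequences are shown 5′ to 3′ from the GENCODE release 29 transcripts, with the 18 bases of the most conserved stretch of the recognition helix in capitals.
HOXA10 homeobox: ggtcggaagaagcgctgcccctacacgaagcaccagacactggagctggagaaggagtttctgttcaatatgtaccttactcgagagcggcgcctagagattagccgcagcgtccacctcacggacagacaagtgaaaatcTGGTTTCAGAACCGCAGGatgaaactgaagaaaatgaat
HOXC10 homeobox: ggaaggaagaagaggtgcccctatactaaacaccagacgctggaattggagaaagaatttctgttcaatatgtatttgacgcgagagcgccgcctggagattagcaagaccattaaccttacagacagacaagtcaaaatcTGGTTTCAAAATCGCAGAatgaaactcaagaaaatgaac
HOXD10 homeobox: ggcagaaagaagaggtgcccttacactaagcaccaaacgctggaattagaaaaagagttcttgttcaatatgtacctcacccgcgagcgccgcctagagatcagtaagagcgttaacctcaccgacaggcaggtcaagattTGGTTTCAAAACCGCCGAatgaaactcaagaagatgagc
Over the coding sequences of all 39 members, the longest run of identical bases in any of the 741 pairs was 62, and no pair shared a run as long as the 150-base reads. Exons that overlap other genes are a different limit, since counting ignored strand by the deposited tables' names: 20 members share exon bases with another annotated gene, 14 of them with one on the opposite strand.

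SKMel28 was marked instead by the 3′, anterior part of HOXD. HOXD4, a gene of the hindbrain and neck vertebrae in the embryo, had 0.615, 0.416 and 0.484 CPM in resistant A375 against 21.99, 23.1 and 23.2 CPM in resistant SKMel28 (log2 difference A375 minus SKMel28 -5.48 ± 0.23 SE, adjusted p = 1.49e-31). In sensitive A375 it had 0.781, 0.579 and 0.399 CPM against 20.3, 20.3 and 23.7 CPM in sensitive SKMel28 (-5.14 ± 0.21, adjusted p = 9.79e-31). HOXD3 was at 0.02795, 0.178 and 0.182 CPM in resistant A375 against 4.73, 4.22 and 4.93 CPM in resistant SKMel28 (-5.15 ± 0.49), and at 0.0252, 0.274 and 0.1995 CPM in sensitive A375 against 8.04, 7.12 and 7.52 CPM in sensitive SKMel28 (-5.56 ± 0.45). HOXD1 differed in the same sense, by -5.55 ± 0.33 between the resistant and -4.43 ± 0.44 between the sensitive cells. No A375 library reached the lowest SKMel28 library for any of these 3 genes. HOXD8, further 5′, was also lower in A375, by -1.89 ± 0.10 in resistant and -1.46 ± 0.10 in sensitive cells, while HOXD13 was higher, by 1.98 ± 0.15 in resistant and 1.57 ± 0.14 in sensitive cells. HOXD3 and HOXD4 both share exon bases with another annotated protein-coding gene of the same strand, so their counts are uncertain. The symbol of that gene is not among those counted, so how its reads were assigned is not known.

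The windows around the start sites of HOXA10, HOXA11, HOXD1 and HOXD4 are shown for their CpG content, since CpG-rich promoters are the usual seat of Polycomb and MLL control. Each runs from 250 bases before to 50 bases after a RefSeq start site (GRCh38.p14), 5′ to 3′ on the gene's strand, with CG in capitals. RefSeq gave windows for 20 members, 27 windows in all, with a median of 22 CpG beside 14 over all 35116 windows of the table.
HOXA10 (chr7:27179812-27180111, minus strand, 21 CpG): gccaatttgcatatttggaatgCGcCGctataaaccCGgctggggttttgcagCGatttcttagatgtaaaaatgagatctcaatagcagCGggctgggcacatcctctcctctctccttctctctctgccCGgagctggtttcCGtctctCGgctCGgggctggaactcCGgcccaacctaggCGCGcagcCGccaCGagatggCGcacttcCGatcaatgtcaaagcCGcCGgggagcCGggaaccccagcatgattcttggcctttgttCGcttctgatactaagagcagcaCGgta
HOXA10 (chr7:27174271-27174570, minus strand, 25 CpG): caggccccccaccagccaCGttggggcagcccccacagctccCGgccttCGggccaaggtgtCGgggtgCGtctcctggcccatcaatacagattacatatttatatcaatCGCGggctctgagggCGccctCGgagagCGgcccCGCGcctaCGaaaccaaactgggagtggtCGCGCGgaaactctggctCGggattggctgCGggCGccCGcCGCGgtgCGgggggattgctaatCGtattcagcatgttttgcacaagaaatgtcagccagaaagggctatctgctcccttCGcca
HOXD4 (chr2:176151300-176151599, plus strand, 4 CpG): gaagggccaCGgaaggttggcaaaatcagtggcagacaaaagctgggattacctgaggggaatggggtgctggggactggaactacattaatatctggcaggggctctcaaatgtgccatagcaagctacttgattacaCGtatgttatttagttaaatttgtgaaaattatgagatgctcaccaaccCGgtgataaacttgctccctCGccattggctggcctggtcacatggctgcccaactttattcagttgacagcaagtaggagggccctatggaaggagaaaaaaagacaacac
HOXD1 (chr2:176188418-176188717, plus strand, 36 CpG): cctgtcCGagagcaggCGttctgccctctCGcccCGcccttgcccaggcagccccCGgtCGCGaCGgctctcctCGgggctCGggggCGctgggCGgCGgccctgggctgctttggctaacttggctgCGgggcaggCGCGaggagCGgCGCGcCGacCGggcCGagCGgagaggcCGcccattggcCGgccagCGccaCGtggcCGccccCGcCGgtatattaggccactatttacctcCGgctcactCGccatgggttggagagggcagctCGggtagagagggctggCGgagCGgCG
HOXA11 (chr7:27185183-27185482, minus strand, 13 CpG): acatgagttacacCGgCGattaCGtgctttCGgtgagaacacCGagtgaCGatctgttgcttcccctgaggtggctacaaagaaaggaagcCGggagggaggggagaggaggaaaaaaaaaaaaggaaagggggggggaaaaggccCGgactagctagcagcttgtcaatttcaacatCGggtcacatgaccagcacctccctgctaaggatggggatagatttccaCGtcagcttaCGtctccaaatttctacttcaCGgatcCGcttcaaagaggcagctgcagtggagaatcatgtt
Of all windows, 12.7% held at least as many CpG as HOXD1, 32% and 39.5% as many as the HOXA10 windows, 51.7% as many as HOXA11 and 75.5% as many as HOXD4. Both HOXA10 windows hold the letters TATAAA, which 5 of the 27 HOX windows and 11.5% of all windows hold. TGATTNAT, a joint site of PBX and HOX proteins, was found in 2 HOX windows and in 2.82% of all windows; both motifs were looked for on both strands.

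Most HOXB and HOXC members were higher in A375: 7 of 9 tested HOXB and 9 of 9 HOXC members in resistant cells, and 6 of 9 and 7 of 9 in sensitive cells. Among all tested genes 42.6% were higher in resistant and 42.4% in sensitive A375. The HOXC counts include HOXC11 and HOXC12, which had no read in SKMel28. The HOXB count in resistant cells includes HOXB13, which had no read in resistant SKMel28. HOXB8 showed the largest difference among HOXB members read in all 4 groups. It had 19.7, 16.6 and 16.6 CPM in resistant A375 against 1.75, 1.29 and 1.28 CPM in resistant SKMel28 (3.61 ± 0.15 SE), and 16.4, 16.8 and 17.3 CPM in sensitive A375 against 2.701, 2.69 and 3.16 CPM in sensitive SKMel28 (2.56 ± 0.13). HOXC13, known for its part in hair and nail formation, had 22.8, 23.9 and 23.4 CPM in resistant A375 against 6.97, 5.96 and 5.48 CPM in resistant SKMel28 (1.93 ± 0.10). In sensitive cells HOXC13 had 29.1, 26.2 and 27.7 CPM in A375 against 5.97, 8.26 and 8.27 CPM in SKMel28 (1.88 ± 0.10). HOXB7 was the HOXB member lower in resistant A375 than in resistant SKMel28 (-0.41 ± 0.07), and HOXB6 the one lower in sensitive A375 than in sensitive SKMel28 (-0.38 ± 0.09).

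Scaling by library size alone, without TMM, moved the median difference between lines over all tested genes to 0.23 in resistant and 0.18 in sensitive cells, against 0.01 and 0.03 with TMM. With that scaling 30 of the 31 called HOX differences between resistant lines and all 29 between sensitive lines kept their call, and none changed direction.

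As described by group means, the HOX profile was more alike between resistant and sensitive cells of a line than between lines. Across the 39 members, Pearson's r of the group means on the log2(CPM + 0.5) scale was 0.993 for resistant and sensitive A375 and 0.914 for resistant and sensitive SKMel28. It was 0.501 for resistant A375 and resistant SKMel28 and 0.607 for sensitive A375 and sensitive SKMel28. The same coefficients over the 15506 tested genes were 0.976, 0.957, 0.804 and 0.839. These are correlations across genes, which are not independent replicates, and are given as a description with no test. The median absolute difference of a member was 0.122 in A375 and 0.273 in SKMel28 between resistant and sensitive cells, and 1.26 in resistant and 0.997 in sensitive cells between lines.

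In A375 no HOX gene was called with a 2-fold change. Calls were made for 11 of 34 tested members, with 7 rises and 4 falls, beside 51.3% of all tested genes called, 25% higher and 26.3% lower. A 2-fold change was called for 10.5% of all tested genes, 4.06% higher and 6.44% lower. The median log2 fold change was 0.04 over the members and 0.00 over all tested genes. The split was 8 higher and 3 lower with DESeq2 size factors, with library size alone or with no filter, and 8 higher and 1 lower by DESeq2.

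HOXB9, which acts in rib and mammary gland patterning in mice, rose most in A375. It had 25.9, 25.2 and 26.4 CPM in resistant A375 libraries against 15.5, 14.9 and 15.1 CPM in sensitive ones, with no overlap (log2 fold change 0.77 ± 0.08 SE, adjusted p = 2.37e-11). HOXC8, a thoracic-level gene, had 21.2, 21.3 and 21.7 CPM in resistant against 14.3, 12.7 and 12.7 CPM in sensitive A375 (0.69 ± 0.10, adjusted p = 7.08e-08). HOXD9 followed with 13.4, 14.6 and 13.01 CPM in resistant against 9.78, 8.29 and 9.04 CPM in sensitive A375 (0.60 ± 0.12, adjusted p = 7.54e-05). All resistant libraries lay above all sensitive ones for these 3 genes. HOXB4, best known for expanding blood stem cells, had 43.2, 41.3 and 38.7 CPM in resistant against 30.1, 30.1 and 30.3 CPM in sensitive A375 (0.44 ± 0.07). HOXA10 (0.27 ± 0.09) also rose. So did HOXC4, with 22.7, 21.7 and 22.8 CPM in resistant against 18.7, 18.3 and 19.5 CPM in sensitive A375 (0.25 ± 0.08), and HOXB3, with 28.3, 26.6 and 27.2 CPM in resistant against 24.6, 22.04 and 24.3 CPM in sensitive A375 (0.21 ± 0.08).

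The 4 falls in A375 were small or at low levels. HOXC12 was at 0.6797 ± 0.133 CPM in resistant against 1.29 ± 0.276 CPM in sensitive A375 (-0.91 ± 0.39, adjusted p = 0.0453), with 70 reads over the resistant and 130 over the sensitive libraries. HOXD13, the most 5′ HOXD gene and a limb-tip gene in the embryo, had 9.17, 9.72 and 7.93 CPM in resistant against 11.4, 12.6 and 9.58 CPM in sensitive A375 (-0.32 ± 0.12), and the groups overlapped. HOXA5, which is linked to lung and breast development, had 9.98, 9.48 and 8.72 CPM in resistant against 10.9, 12.4 and 11.2 CPM in sensitive A375 (-0.29 ± 0.11). Its groups did not overlap, nor did those of HOXC13 (-0.24 ± 0.08). Each of the 4 falls lost its call without at least 1 library. HOXC12 lost it without any one of the A375 libraries (-1.04 to -0.74) or of the resistant SKMel28 libraries, and HOXA5 without resistant replicate 2 or 3 or sensitive replicate 2 (-0.26 to -0.20). HOXC13 lost it without any one of the resistant replicates or sensitive replicate 1 (-0.23 to -0.20), and HOXD13 without resistant replicate 1 or 3 or sensitive replicate 1 or 2 (-0.31 to -0.21). The number called lower was 0 without resistant replicate 3 and 1 without resistant replicate 1 or 2 or sensitive replicate 1 or 2, and the number called in either direction was 7 without sensitive replicate 2. Among the rises, HOXA10 lost its call without sensitive replicate 3 (0.22) and HOXB3 without sensitive replicate 2 (0.16).

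HOXB2, the leading HOXB gene in A375, was not called. It had 56.3, 52.5 and 55.96 CPM in resistant against 59.1, 54.1 and 54.7 CPM in sensitive A375 (-0.03 ± 0.05 SE, adjusted p = 0.689). HOXB7, with 32.8 ± 2.35 CPM in resistant and 32.9 ± 1.297 CPM in sensitive A375 (SD, n = 3), was not called either, nor was HOXC10 with 48.96 ± 0.421 CPM in resistant and 45.95 ± 3.17 CPM in sensitive A375. HOXB13, the prostate and tail-level gene at the 5′ end of HOXB, was at 12.1, 11.9 and 11.4 CPM in resistant and 12.3, 11.2 and 11.04 CPM in sensitive A375 (0.03 ± 0.11). HOXA4 had 11.1, 10.8 and 10.2 CPM in resistant and 12.8, 11.5 and 12.2 CPM in sensitive A375 (-0.19 ± 0.10, adjusted p = 0.122). HOXB6 (0.07 ± 0.09), HOXC6 (-0.07 ± 0.08) and HOXA3 (-0.11 ± 0.10) were not called. HOXD1 had 0.559, 0.357 and 0.0908 CPM in resistant and 0.277, 0.06097 and 0.1995 CPM in sensitive A375 (0.87 ± 0.53, adjusted p = 0.159 by edgeR); without resistant replicate 3 it was called, at 1.33 (adjusted p = 0.0190 by edgeR), and the value ran from 0.31 to 1.39 over the libraries left out. The untested HOXD11 had 2 reads over the resistant and 12 over the sensitive A375 libraries. The signs of HOXB2 and HOXB7 turned with scaling, at values of 0.03 or less. Melanocyte markers moved in the same libraries: their summed level was 31.3 to 33.7 CPM in resistant and 373 to 383 CPM in sensitive A375 libraries, SOX10 being at 0.138 ± 0.0487 CPM in resistant and 325 ± 6.004 CPM in sensitive cells. Summed leukocyte markers stood at 57.7 to 62.1 CPM in resistant and 37.98 to 42.8 CPM in sensitive A375, with PTPRC and CD3E below 0.1 CPM in both. Epithelial markers summed to 1256 to 1351 CPM in resistant and 1014 to 1069 CPM in sensitive cells. Only 2 of the 4 reached 1 CPM in each group, with CDH1 below 0.1 CPM in resistant and EPCAM below 0.1 CPM in sensitive cells. Keratinocyte markers summed to 83.3 to 93.7 CPM in resistant and 120.4 to 124.2 CPM in sensitive cells. Fibroblast markers stood at 4.99 to 5.03 CPM in resistant and 9.22 to 10.2 CPM in sensitive cells, and endothelial ones at 2.59 to 3.38 CPM in resistant and 4.52 to 6.07 CPM in sensitive cells. What part these have in the HOX values was not tested.

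**Figure D3:**
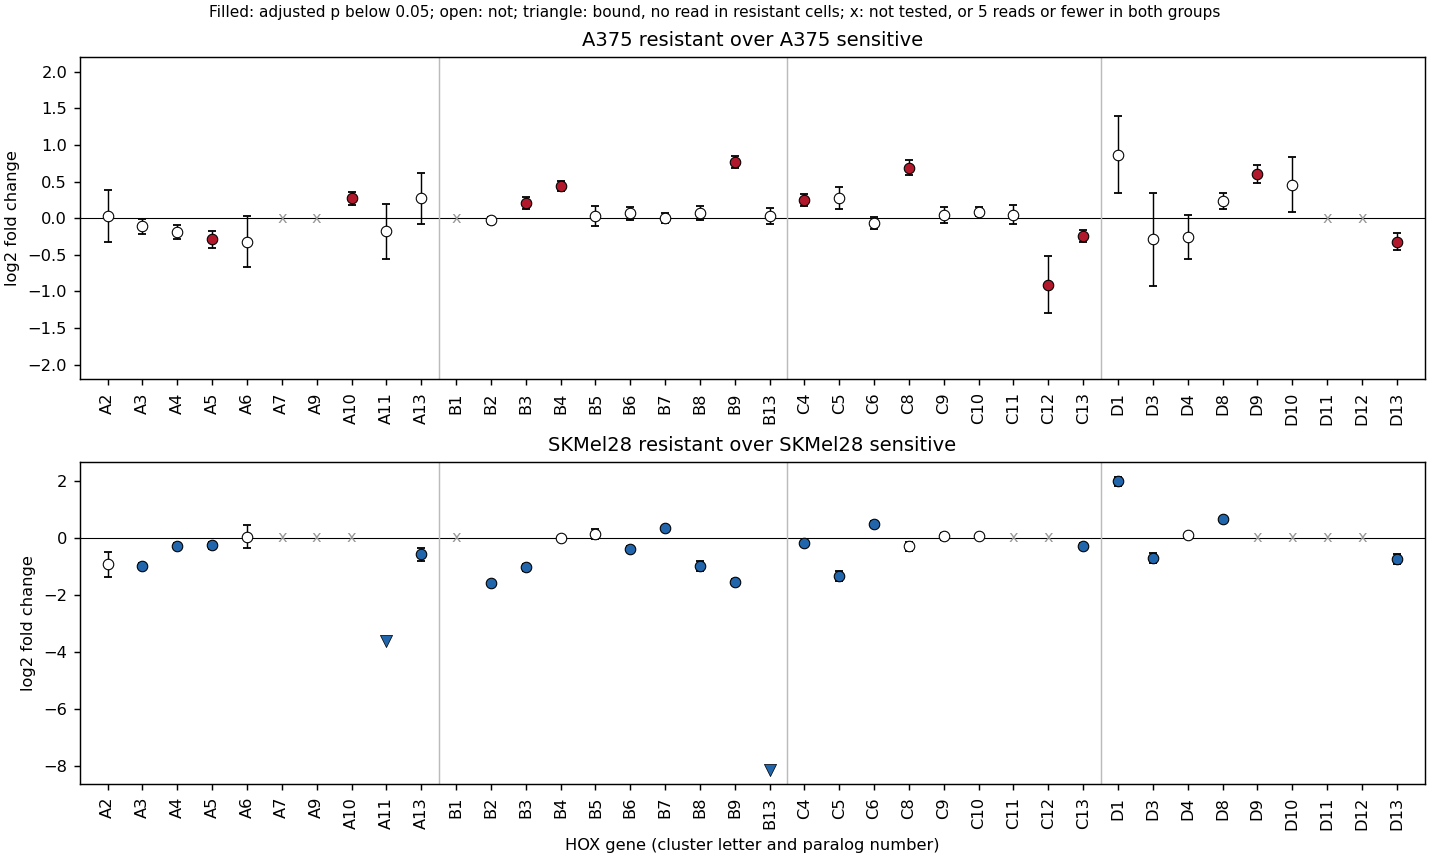
Log2 fold change of the HOX genes, resistant over sensitive, with its SE, for A375 (top, axis to 2.2) and SKMel28 (bottom, axis to beyond 8 below 0). Filled points were called, open ones were not, triangles are bounds for genes with no read in resistant cells and an x marks genes not tested or with 5 reads or fewer in both groups. In A375 no point passes 1 in either direction with a call, while in SKMel28 HOXA11 and HOXB13 drop to bounds and HOXD1 stands near 2.

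In SKMel28 resistant cells had lower levels of much of HOXA and HOXB. Calls were made for 21 of 34 tested members, with 4 rises and 17 falls, beside 70% of all tested genes called, 34.2% higher and 35.8% lower. By cluster, 6 of 9 tested HOXA and 6 of 9 tested HOXB members fell and 1 HOXB member rose, while HOXC had 3 falls and 1 rise among 9 and HOXD 2 falls and 2 rises among 7. At least 2-fold were 1 rise and 6 falls, beside 8.66% of all tested genes with such a rise and 12.1% with such a fall. The median log2 fold change was -0.29 over the members, -0.98 over HOXB and -0.58 over HOXA, beside -0.01 over all tested genes. HOXA10, HOXC11 and HOXC12 had no read in SKMel28 and could not be called there. HOXD10 had 1 read in each SKMel28 group, and HOXD9 had 1 in resistant and 5 in sensitive cells. These genes are in the 34, in the counts of their clusters and in the median over the members. The share of all tested genes likewise includes genes not read in SKMel28. Summed melanocyte markers stood at 10920 to 11070 CPM in resistant and 7266 to 7706 CPM in sensitive SKMel28 libraries. Summed leukocyte markers stood at 758 to 764 CPM in resistant and 207 to 220 CPM in sensitive SKMel28, nearly all CD68, with PTPRC and CD3E below 0.1 CPM in both. Epithelial markers summed to 17.4 to 20.8 CPM in resistant and 56.2 to 65.7 CPM in sensitive cells, and keratinocyte markers to 28.5 to 34.1 CPM in resistant and 66.3 to 70.4 CPM in sensitive cells. Fibroblast markers stood at 17.4 to 20.9 CPM in resistant and 26.6 to 26.9 CPM in sensitive cells, and endothelial ones at 1.86 to 2.12 CPM in resistant and 5.798 to 6.502 CPM in sensitive cells. The part of these markers in the HOX values was not tested.

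HOXB13 was no longer read. It had no read in any resistant SKMel28 library, against 7.77, 10.1 and 8.01 CPM in the sensitive ones (780 reads). With 3 reads over the group as the floor it was at least 283-fold lower (adjusted p = 1.65e-25). In A375 all 6 libraries had 11.04 CPM of it or more. HOXA11, a gene of the forearm and the reproductive tract, also had no read in resistant SKMel28, against 0.10, 0.706 and 0.326 CPM and 34 reads in sensitive SKMel28, at least 12.4-fold lower (adjusted p = 1.33e-05). Its sensitive libraries spread widely: without sensitive replicate 2 the bound was 7.04-fold, on 13 reads. Of its exon bases, 546 overlap the antisense transcript HOXA11-AS.

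Other HOXB genes fell but were still read. HOXB2 had 11.95, 12.2 and 13.3 CPM in resistant against 37.1, 37.7 and 36.5 CPM in sensitive SKMel28 (log2 fold change -1.57 ± 0.07 SE, adjusted p = 1.08e-24). HOXB9 had 5.497, 5.86 and 5.19 CPM in resistant against 16.4, 15.1 and 16.97 CPM in sensitive SKMel28 (-1.55 ± 0.10, adjusted p = 6.31e-19). HOXB3 had 3.99, 3.69 and 4.52 CPM in resistant against 8.17, 9.34 and 7.72 CPM in sensitive SKMel28 (-1.04 ± 0.11, adjusted p = 3.11e-11). No resistant library reached a sensitive one for any of them. HOXB8 fell nearly as much as HOXB3 at a lower level (1.75, 1.29 and 1.28 CPM in resistant against 2.701, 2.69 and 3.16 CPM in sensitive cells, -0.98 ± 0.18). HOXB6 fell less, with 11.9, 13.9 and 13.6 CPM in resistant against 17.4, 18.3 and 15.9 CPM in sensitive cells (-0.39 ± 0.09). HOXB4 (-0.01 ± 0.08) and HOXB5 (0.13 ± 0.17) were not called, and HOXB7 rose, with 41.1, 41.9 and 48.2 CPM in resistant against 33.7, 38.03 and 32.5 CPM in sensitive SKMel28 (0.33 ± 0.07). HOXB3 and HOXB4 share 121 exon bases.

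The falls in HOXA differed in size. HOXA3, which acts in the pharyngeal arches, had 10.1, 11.1 and 11.2 CPM in resistant against 22.9, 19.6 and 21.2 CPM in sensitive SKMel28 (-0.98 ± 0.09 SE, adjusted p = 5.43e-13). HOXA4, with 6.94, 6.43 and 8.13 CPM in resistant against 8.202, 9.17 and 8.83 CPM in sensitive cells, fell less (-0.28 ± 0.11). HOXA5, with 6.33, 7.501 and 7.52 CPM in resistant against 8.14, 9.58 and 7.82 CPM in sensitive cells (-0.26 ± 0.12), and HOXA13 (-0.58 ± 0.24) also fell. HOXA4 lost its call without resistant replicate 1 (-0.26) or 2 (-0.21) or sensitive replicate 2 (-0.24), HOXA13 without resistant replicate 2 (-0.49) or sensitive replicate 1 (-0.49) or 2 (-0.47), and HOXA5 without resistant replicate 1 (-0.18), sensitive replicate 2 (-0.16) or any one of 5 A375 libraries. HOXA2 was not called (-0.93 ± 0.44, adjusted p = 0.05395) at 0.331 ± 0.146 CPM in resistant and 0.6402 ± 0.219 CPM in sensitive cells.

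In HOXC a pair of neighbouring genes moved apart. HOXC5 had 1.84, 2.08 and 2.83 CPM in resistant against 6.802, 5.38 and 5.05 CPM in sensitive SKMel28 (-1.34 ± 0.18 SE, adjusted p = 4.23e-09), and HOXC6 rose, with 11.9, 14.6 and 15.5 CPM in resistant against 10.6, 9.71 and 9.64 CPM in sensitive SKMel28 (0.49 ± 0.09, adjusted p = 1.38e-05). Neither pair of groups overlapped. HOXC4, with 15.6, 13.96 and 17.1 CPM in resistant against 17.5, 16.8 and 19.2 CPM in sensitive cells (-0.19 ± 0.08), and HOXC13 (-0.29 ± 0.11) fell with overlapping groups. HOXC8 (-0.30 ± 0.15), HOXC9 (0.05 ± 0.13) and HOXC10 (0.05 ± 0.08) were not called. HOXC4 lost its call without resistant replicate 1 (-0.19) or 2 (-0.12) or sensitive replicate 3 (-0.13), and HOXC13 without resistant replicate 2 (-0.27) or 3 (-0.21) or sensitive replicate 2 (-0.21) or 3 (-0.21). HOXC4 and HOXC6 share 484 exon bases and HOXC5 shares 611 of its 1805 with an annotated gene of the same strand, so the division of reads among HOXC4, HOXC5 and HOXC6 is uncertain. The gene that overlaps HOXC5 is not among the symbols counted.

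HOXD genes parted within the cluster. HOXD1, at its 3′ end, had 15.1, 15.5 and 17.9 CPM in resistant against 4.03, 4.94 and 3.26 CPM in sensitive SKMel28 (1.99 ± 0.16 SE, adjusted p = 5.59e-14), the 1 HOX gene called with a rise of 2-fold or more in either line. An annotated transcript of the opposite strand covers 989 of the 1975 exon bases of HOXD1, so the counts of HOXD1 are uncertain. That transcript is not among the symbols counted. HOXD8 had 26.8, 25.6 and 28.7 CPM in resistant against 15.1, 17.2 and 19.1 CPM in sensitive SKMel28 (0.66 ± 0.09, adjusted p = 1.26e-08). Between them on the chromosome, HOXD3 fell (4.73, 4.22 and 4.93 CPM in resistant against 8.04, 7.12 and 7.52 CPM in sensitive cells, -0.71 ± 0.18) and HOXD4 was not called (0.09 ± 0.09). HOXD13 fell, with 1.97, 2.02 and 2.77 CPM in resistant against 4.03, 3.49 and 3.81 CPM in sensitive cells (-0.74 ± 0.17). HAGLR, a long noncoding RNA that runs opposite to HOXD3 and HOXD1 and shares 101 exon bases with HOXD3, rose in the same cells to 198 ± 4.14 CPM in resistant against 91.2 ± 1.27 CPM in sensitive SKMel28 (1.12 ± 0.05); how many of its reads were counted for its neighbours was not tested.

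**Figure D4:**
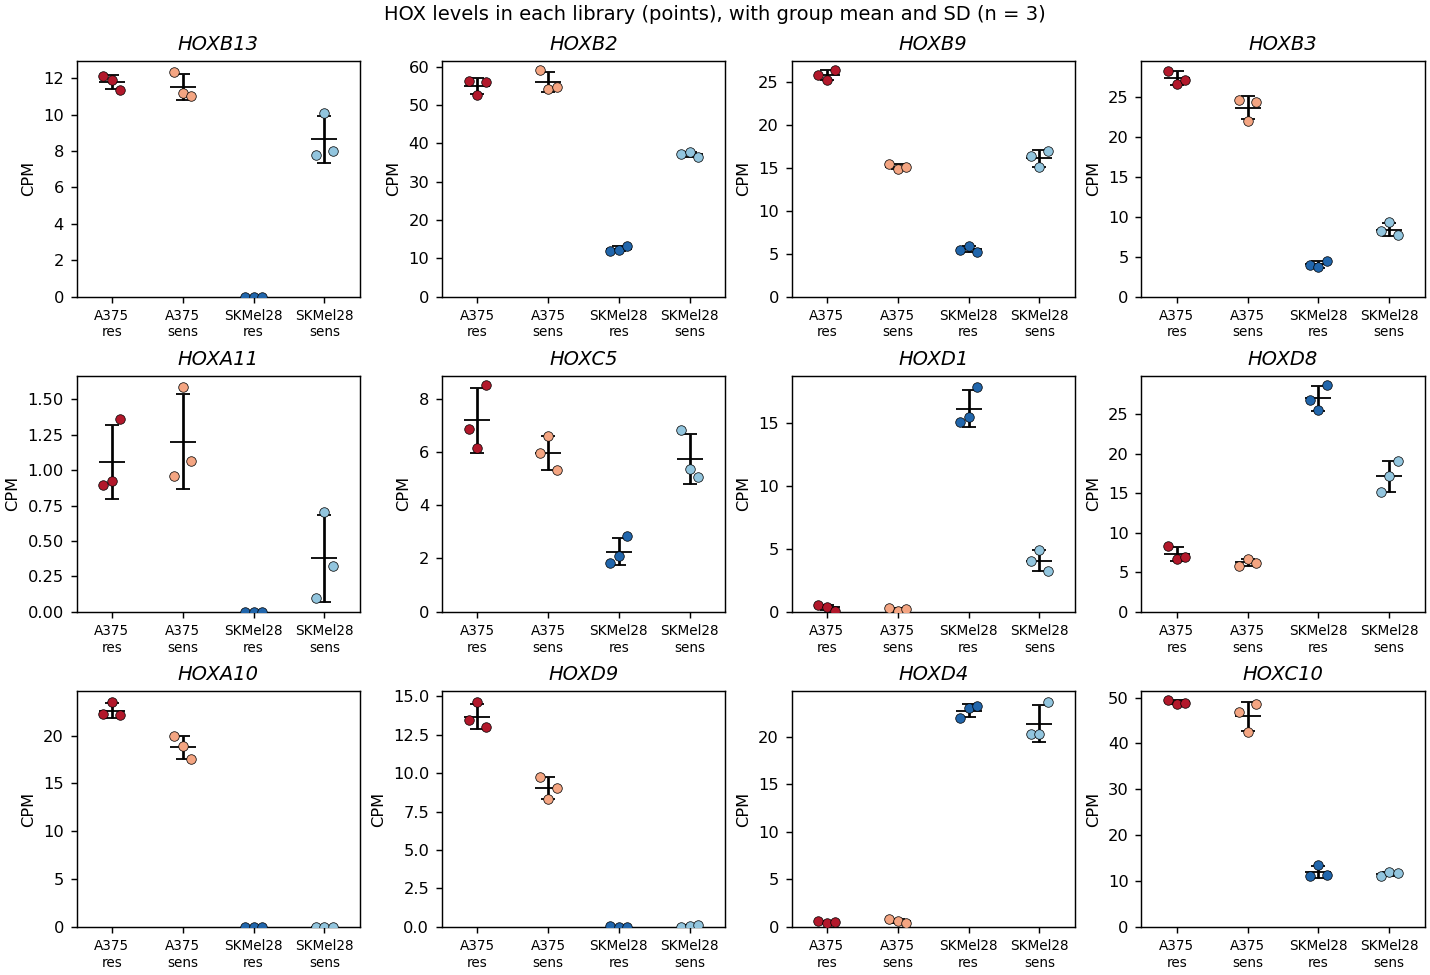
CPM of 12 HOX genes in each library, with points for libraries, lines for group means and whiskers for the SD (n = 3 per group, axes from 0). HOXB13, HOXB2, HOXB9, HOXB3, HOXA11 and HOXC5 are lower in resistant than in sensitive SKMel28, HOXD1 and HOXD8 are higher there, HOXA10 and HOXD9 are read in A375 and HOXD4 in SKMel28.

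The difference between the lines in their change was tested directly. It was called for 16 of 34 tested members, 13 with a higher and 3 with a lower change in A375 than in SKMel28, beside 63.8% of all tested genes, 31.4% higher and 32.4% lower. HOXA10, HOXC11 and HOXC12, among the 34, had no read in SKMel28 and so no measured change there, and could not be called. HOXD10 had 1 read in each SKMel28 group. The share of all tested genes likewise includes genes not read in 1 of the lines. HOXB held 8 of the 16 among its 9 tested members. HOXB9 went in opposite directions and had the largest difference with reads in all groups (2.32 ± 0.12 SE, adjusted p = 1.00e-20). For HOXC5 the difference was 1.61 ± 0.23, for HOXB2 1.54 ± 0.09, for HOXB3 1.25 ± 0.14, for HOXB8 1.05 ± 0.20 and for HOXC8 0.99 ± 0.18. HOXB7 (-0.33 ± 0.09), HOXC6 (-0.56 ± 0.13) and HOXD8 (-0.43 ± 0.14) were the members with the lower change in A375. The change in HOXB13 and HOXA11 also differed (adjusted p = 3.93e-23 and 1.06e-04). All 16 calls held in every alternative setting and without any one library.

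Genes around the clusters were read beside them. Within 1 Mb of HOXA, 8 non-HOX genes were tested, of which 1 rose and 6 fell in resistant SKMel28 (median log2 fold change -0.38), and around HOXC 6 of 34 rose and 18 fell (-0.16). Around HOXB 7 of 30 rose and 11 fell, with a median of -0.09 beside -0.98 over the HOXB members, and the difference of these medians was not tested. By 2-fold or more, 2 of these 30 genes were called lower and 2 higher. The 2 lower ones were COPZ2 (-6.17) and NGFR (-4.17), chosen after their values were seen. Around HOXD 2 of 3 rose and none fell (0.11). In A375 the medians of the flanking genes were 0.10 around HOXA, 0.01 around HOXB, -0.01 around HOXC and 0.70 around HOXD. The part that a regional change or copy number has in the HOX values was not tested.

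**Figure D5:**
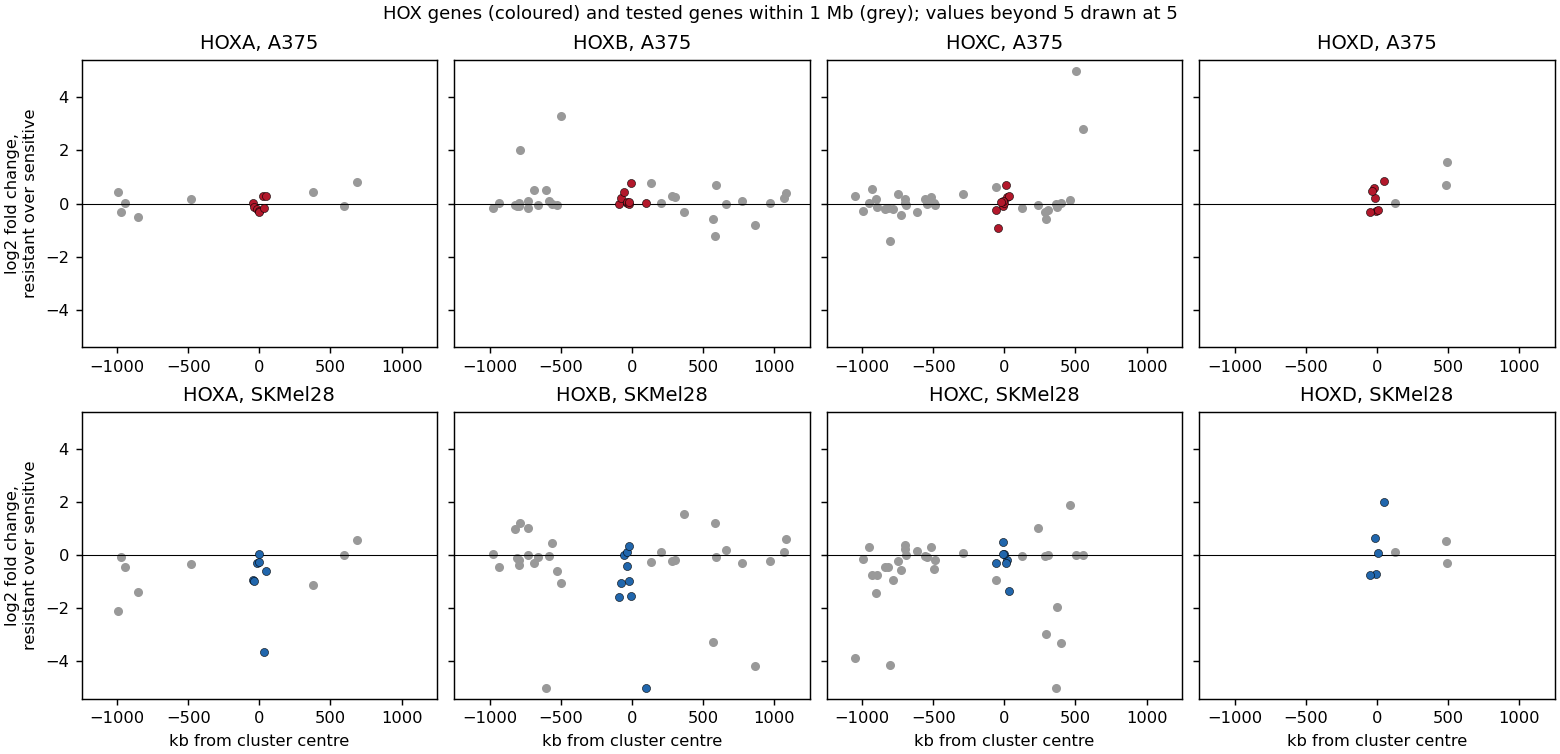
Log2 fold change, resistant over sensitive, of HOX genes (coloured) and other tested genes within 1 Mb (grey) by distance in kb from the centre of each cluster, A375 above and SKMel28 below. Values beyond 5 are drawn at 5, and HOX genes with no read in resistant cells at their bound. In SKMel28 most HOXB members lie below 0. The grey points around HOXB there, of which 7 were called higher and 11 lower, include NGFR at -4.17 and COPZ2 at -6.17.

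Of the transcripts read from within the clusters other than HOX mRNAs, 31 were listed, 27 of them counted and 12 tested. In resistant SKMel28, 1 rose and 4 fell, and in resistant A375 3 rose. HOTAIRM1, a noncoding RNA at the 3′ end of HOXA, fell in SKMel28 with 2.68 ± 0.115 CPM in resistant against 5.71 ± 0.855 CPM in sensitive cells (-1.09 ± 0.17 SE). HOXB-AS1, antisense to HOXB2 and HOXB3, had 0.232 ± 0.151 CPM in resistant against 0.674 ± 0.107 CPM in sensitive SKMel28 (-1.52 ± 0.47); HOXB-AS1 had 23 reads over the resistant and 61 over the sensitive libraries. HOTAIR, the noncoding RNA between HOXC11 and HOXC12, was at 1.59 ± 0.1101 CPM in resistant and 1.62 ± 0.139 CPM in sensitive A375 and had no read in SKMel28, the line with no read of HOXC11 and HOXC12. HOXB-AS1 and HOTAIR were chosen after their values were seen.

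Of the 9 HOX cofactor genes, resistant A375 showed 1 rise and 5 falls, and resistant SKMel28 5 rises and 2 falls (median log2 fold changes -0.15 and 0.20). PKNOX2, a relative of the MEIS genes, went opposite ways, with 0.0685 ± 0.01803 CPM in resistant against 1.53 ± 0.0476 CPM in sensitive A375 (-4.41 ± 0.54 SE) and 31.97 ± 0.407 CPM in resistant against 16.5 ± 0.814 CPM in sensitive SKMel28 (0.95 ± 0.08). MEIS2 fell in A375, at 13.01 ± 0.612 CPM in resistant against 29.7 ± 0.6903 CPM in sensitive cells (-1.19 ± 0.07), and MEIS3 rose there, at 6.44 ± 0.904 CPM in resistant against 3.104 ± 0.582 CPM in sensitive cells (1.06 ± 0.17).

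Chromatin regulators of HOX loci moved in both directions. Of 27 tested Polycomb genes, resistant A375 showed 4 rises and 9 falls (median -0.05), and resistant SKMel28 9 rises and 10 falls (-0.02). Among all tested genes, 25% rose and 26.3% fell in resistant A375, and 34.2% rose and 35.8% fell in resistant SKMel28. The counts of the other gene lists stand beside the same shares. PHF19, a reader subunit of Polycomb complex PRC2, was the one with a 2-fold change, at 77.2 ± 4.87 CPM in resistant against 203 ± 6.61 CPM in sensitive SKMel28 (-1.39 ± 0.04 SE). Of 22 genes of MLL complexes and other activators, A375 had 2 rises and 8 falls (-0.07), and SKMel28 6 rises and 11 falls (-0.14). MLLT3, a reader protein of the super elongation complex, rose in SKMel28, at 17.4 ± 1.47 CPM in resistant against 8.57 ± 0.419 CPM in sensitive cells (1.02 ± 0.10).

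Retinoic acid, which switches on anterior HOX genes in the embryo, has a pathway of which 15 genes were tested. In resistant SKMel28 3 rose and 8 fell, with a median log2 fold change of -0.94, and in resistant A375 2 rose and 7 fell, with a median of -0.17; the medians of all tested genes were -0.01 and 0.00. ALDH1A3, which makes retinoic acid, was at 29.5 ± 2.76 CPM in resistant against 1022 ± 5.7 CPM in sensitive SKMel28 (-5.12 ± 0.04 SE) and at 337 ± 2.3 CPM in resistant against 533 ± 4.29 CPM in sensitive A375 (-0.66 ± 0.04). Receptor genes fell in SKMel28 too: RXRG was at 5.12 ± 0.319 CPM in resistant against 47.1 ± 1.79 CPM in sensitive cells (-3.20 ± 0.11) and RARA at 18.3 ± 2.03 CPM in resistant against 38.6 ± 4.13 CPM in sensitive cells (-1.08 ± 0.07). The corepressor gene NRIP1 had 13.7 ± 0.757 CPM in resistant against 37.5 ± 2.67 CPM in sensitive SKMel28 (-1.45 ± 0.06). In A375, DHRS3, which turns retinal back to retinol, had 17.9 ± 0.997 CPM in resistant against 53.9 ± 0.794 CPM in sensitive cells (-1.59 ± 0.08).

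Homeobox genes of regional identity outside the clusters moved in both directions. Of 20 tested, 5 rose and 5 fell in resistant A375, 4 of the falls by 2-fold or more, and 6 rose and 9 fell in resistant SKMel28. MEOX2, a gene of limb muscle and vessels, had 2.098 ± 0.371 CPM in resistant against 31.1 ± 1.64 CPM in sensitive A375 (-3.89 ± 0.14 SE) and no read in SKMel28. EN1, a gene of the midbrain border and the ventral limb, went opposite ways, with 0.418 ± 0.134 CPM in resistant against 1.78 ± 0.531 CPM in sensitive A375 (-2.06 ± 0.30) and 11.7 ± 1.23 CPM in resistant against 2.88 ± 0.363 CPM in sensitive SKMel28 (2.03 ± 0.17). DLX1 (-1.35 ± 0.09) and DLX2 (-1.56 ± 0.16), paired genes that are not among those within 1 Mb of HOXD, fell in SKMel28.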

How the data were processed

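Poly(A)-selected RNA of 12 libraries, 3 in each of 4 groups, was sequenced as paired 150-base reads, per the labels' protocols. The authors deposited 1 table of raw counts per gene symbol for each library. HISAT2, StringTie and GRCh38.p12 are in the submitters' processing notes, while the deposited tables' names point to another aligner, untrimmed reads and unstranded counting, so the aligner is not settled here. The 5 summary lines of each table, 15.1 to 19.5% of the counted reads, were left out of library sizes and tests.

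Groups were taken from the labels. Counts were fitted with edgeR 4.0.16 in R 4.3.3 (TMM scaling, filterByExpr, robust quasi-likelihood fit with 1 coefficient per group, 8 residual degrees of freedom), and 15506 of 26499 genes were tested in 5 contrasts with Benjamini-Hochberg adjustment over all of them. CPM are counts over the TMM-scaled total of gene reads. Exon lengths, positions and exon overlaps came from GENCODE release 29, promoters from RefSeq (GRCh38.p14). Of the counted symbols, 2560 could not be matched to that GENCODE release, so lengths and overlaps may differ from those used in counting. Depths of 28496518 to 37721363 gene reads leave the common biological coefficient of variation at 4.2%. Flanking genes are tested non-HOX genes that start within 1 Mb of a cluster. Values in every library of at least 1 line were given for members chosen by a rule. These reached 1 CPM in a group and were called with a 2-fold change within a line or stood among the top 3 levels of their cluster. HOXA13, HOXB8, HOXC8, HOXC11 and HOXC12 were added after their values were seen. A listed non-HOX gene was named if it was called, changed 2-fold and reached 5 CPM in a group. PKNOX2 passed the level in the line other than the one with the 2-fold change. The values of some genes, a HOX gene among them, are not reported here; the counts, sums and medians include them. Members and gene lists were chosen with earlier results of these data known. Alternatives were other scalings, no filter, DESeq2 1.42.0, the 2 groups of a comparison alone, a replicate block, other level thresholds and leaving out each library. The fit was tested on simulated data.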

Additional observations from a re-analysis of the deposited data

Results flagged for a closer look

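The change with resistance differed between the lines in 16 HOX genes, all but 1 of which are given here, by the interaction test over all genes (edgeR, Benjamini-Hochberg over 15506 genes, 3 libraries per group). Values are the A375 log2 fold change minus the SKMel28 one. In HOXA the difference was 0.87 ± 0.13 (SE) for HOXA3. In HOXB it was 1.54 ± 0.09 for HOXB2, 1.25 ± 0.14 for HOXB3, 0.45 ± 0.10 for HOXB4 and 0.46 ± 0.13 for HOXB6, then -0.33 ± 0.09 for HOXB7, 1.05 ± 0.20 for HOXB8 and 2.32 ± 0.12 for HOXB9. In HOXC it was 0.45 ± 0.11 for HOXC4, 1.61 ± 0.23 for HOXC5, -0.56 ± 0.13 for HOXC6 and 0.99 ± 0.18 for HOXC8. HOXD8 was the HOXD gene with a difference, -0.43 ± 0.14. For HOXA11 and HOXB13 the fitted differences were 6.46 and 11.18; with no read in resistant SKMel28 these fitted values depend on the prior count and are no bound.

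HOXB9 and HOXB3 were called in opposite directions in the lines, higher in resistant A375 and lower in resistant SKMel28, and so was HOXC4. For HOXB4 and HOXC8 the call was in A375, and for the other 11 it was in SKMel28.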

How the results depend on the processing

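The calls that held in all settings run were 5 of 11 in A375, 16 of 21 in SKMel28, 16 of 16 for the difference of changes, 28 of 29 between sensitive and 30 of 31 between resistant lines. Leaving out a library, 7 to 11 members were called in A375, 0 to 4 of them lower; DESeq2 called 1 lower, against 4. By DESeq2, HOXC12 (-0.88), HOXC13 (-0.21) and HOXD13 (-0.29) in A375 and HOXA5 (-0.25) in SKMel28 were not called; HOXC12 also lost its call with library size alone or DESeq2 size factors in edgeR, HOXC12, HOXA5 and HOXC4 with no filter, and HOXA5 and HOXC13 in SKMel28 with the 2 groups alone. Calls were gained in A375 by HOXD8 (0.26 to 0.32; both scalings, no filter, DESeq2, and without resistant replicate 2 or 3), HOXC5 (0.40, without resistant replicate 2) and HOXD1 (1.33, without resistant replicate 3). Across all alternatives 17 to 23 were called in SKMel28. Between sensitive lines HOXA6 (0.89) was not called without A375 sensitive replicate 2 or 3 or SKMel28 sensitive replicate 3.

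Changes that turned sign were uncalled and near 0 or at low counts. With DESeq2 size factors, library size alone, no filter and DESeq2, HOXB2 in A375 was at 0.01, 0.00, 0.00 and 0.01 (main value -0.03) and HOXB7 at 0.03 in each. HOXB4 in SKMel28 was at 0.00 with DESeq2 size factors, 0.01 with no filter and 0.00 by DESeq2. Leaving out 1 library, A375 values ran from -0.36 to 0.07 for HOXA11, -0.06 to 0.04 for HOXB2, -0.01 to 0.19 for HOXB6, -0.03 to 0.07 for HOXB7, -0.89 to 0.32 for HOXD3 and -0.44 to 0.04 for HOXD4. SKMel28 values ran from -0.08 to 0.05 for HOXB4 and -0.04 to 0.09 for HOXC10. The causes were not tested.

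Sums by cluster moved beyond 1 SD with library size alone, in the order resistant A375, sensitive A375, resistant SKMel28 and sensitive SKMel28: HOXA 65.07, 65.42, 31.65 and 52.17 CPM, HOXB 249.5, 217.0, 93.1 and 137.7 CPM, HOXC 176.8, 161.7, 54.06 and 58.45 CPM, and all 4 clusters 525.8, 474.0, 246.5 and 300.1 CPM. HOXD moved to 34.49 CPM in resistant A375 and 67.73 CPM in resistant SKMel28. With DESeq2 size factors HOXA was at 61.96 CPM in resistant A375 and 54.12 CPM in sensitive SKMel28, HOXC at 168.3 CPM and all clusters at 500.7 CPM in resistant A375.

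Correlations of same-numbered deviations were 0.00128, -0.000866 and -0.0102 in A375, within the range of differently numbered ones (-0.013 to 0.0132). In SKMel28 they were 0.0842, -0.00448 and 0.063, against -0.0814 to 0.0142 for differently numbered ones. Replicate numbers thus did not pair libraries in A375, while pairing in SKMel28 was not settled. With a replicate block 10 members were called in A375 (HOXC12 lost its call, -0.90, adjusted p = 0.0650 by edgeR) and 21 in SKMel28. Depth limits HOXA11, HOXC12, HOXD10 and HOXA2, which stood near or below 1 CPM.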
